A study of Homo sapiens with 6 samples.

Results

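Integrins are cell surface receptors built from 1 α and 1 β subunit that hold cells to the extracellular matrix or to other cells, and laminins are trimers of an α, a β and a γ chain that form the basement membrane and are bound by several of these receptors. All rows of the count table whose symbol is that of an integrin α subunit, an integrin β subunit or a laminin chain were taken, which gave 38 of 59653 genes: 26 integrin subunits (18 α and 8 β) and 12 laminin chains (5 α, 4 β and 3 γ). Of these, 32 were among the 19008 genes tested, for which 3 or more libraries had to reach 5 normalized counts (counts scaled for library size). The 6 that did not pass were ITGA4, ITGA8, ITGAD, ITGAL, LAMB4 and LAMC3.

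The subunits were measured by RNA sequencing of SK-OV3 cells, an established human ovarian cancer line labelled wildtype, after transfection with pooled siRNAs against the long non-coding RNA PVT1 (siPVT1, 3 libraries) or with scrambled control siRNAs (siControl, 3 libraries). Both groups were transfected at 50 nM and collected after 48 h, and differ by the siRNA pool alone as far as the labels tell. The study asked which genes change when PVT1 is reduced. A single cell line and a single pool of siRNAs were used, and no source used here says that the libraries of a group came from separate cultures, so p-values measure the spread between these libraries, which may be technical.

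Several integrins share a β subunit, so that β1 pairs with many α subunits and αV with many β subunits, and the pair decides which ligand is bound. Collagens, laminins and proteins that carry the RGD peptide, such as fibronectin and vitronectin, are each bound by a set of receptors, and the β2 integrins are known from leukocytes. These sets are not exclusive, although each receptor is placed in a single class here. In ovarian carcinoma, integrins are known for the attachment of floating cells to the mesothelial matrix. A laminin trimer is named by its chains, so that laminin-511 holds α5, β1 and γ1. An mRNA level says nothing of how much of a receptor or trimer is assembled, and in a bulk sample fewer cells of a type cannot be told apart from less RNA per cell.

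Libraries held 28383171 to 35059576 counts. PVT1, the targeted RNA, had 3298, 4090.5 and 3377 normalized counts in the siControl libraries and 2349.7, 2111 and 2062 in the siPVT1 libraries, a log2 fold change of -0.72 ± 0.10 (adjusted p = 3.42e-04) in edgeR's quasi-likelihood test. The groups did not overlap for PVT1, which fell to 0.61 of its siControl level, a change under the 2-fold threshold used for calls below. The 38 subunits together took 0.669% to 0.671% of all counts in the siControl libraries and 0.918% to 1.21% in the siPVT1 libraries, with the lowest of the siPVT1 shares in replicate 3. Among the 18 subunits that passed both thresholds, siPVT1 replicate 3 was the siPVT1 library nearest to siControl for 16 and replicate 1 for 2. No such count was made for other genes. Across tested genes, siPVT1 replicate 3 differed most from the others of its group. The chi-square per degree of freedom was 46.3 against replicate 1 and 20 against replicate 2, and 8.74 between replicates 1 and 2. The epithelial keratins KRT8 (8575 ± 685 normalized counts in siControl, SD, n = 3) and KRT18 (8551 ± 525) and the Müllerian factor PAX8 (2627 ± 23.6) were present, whereas CDH1, the epithelial cadherin, had 0 to 43 counts. The leukocyte markers PTPRC and CD3E had 0 to 2 counts in any library.

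More integrin and laminin subunits were higher than lower in siPVT1. A gene was called where its Benjamini-Hochberg adjusted p in edgeR's quasi-likelihood test was under 0.05 and its absolute log2 fold change at least 1. Of the 32 tested subunits, 15 were called higher, against 11.8% of all 19008 genes tested, and 3 were called lower, against 9.64% of all genes. At an adjusted p under 0.05 alone, 22 were higher and 3 lower, against 29.5% and 28.4% of all genes. Those higher included ITGB3, ITGB8, LAMA4, ITGB4, ITGAX, ITGA11, LAMA5, LAMA3, ITGB5, LAMB2, ITGA1, ITGA2, ITGB2 and ITGA5, and the 3 lower were ITGAM, LAMA2 and LAMA1. The groups of libraries did not overlap for 24 subunits that were higher and 3 that were lower in siPVT1, where 65.6% of all genes did not overlap in either direction. The median log2 fold change was 0.76 over the 22 tested integrin subunits and 0.94 over the 10 tested laminin chains, beside 0.0014 over all genes. When counts were scaled by the total count in place of the TMM factors, the median of all genes moved to -0.15, 13 of the 32 were called, and 43.8% of all calls were higher in place of 55.1%. The fold changes are plotted by subunit.

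**Figure D1:**
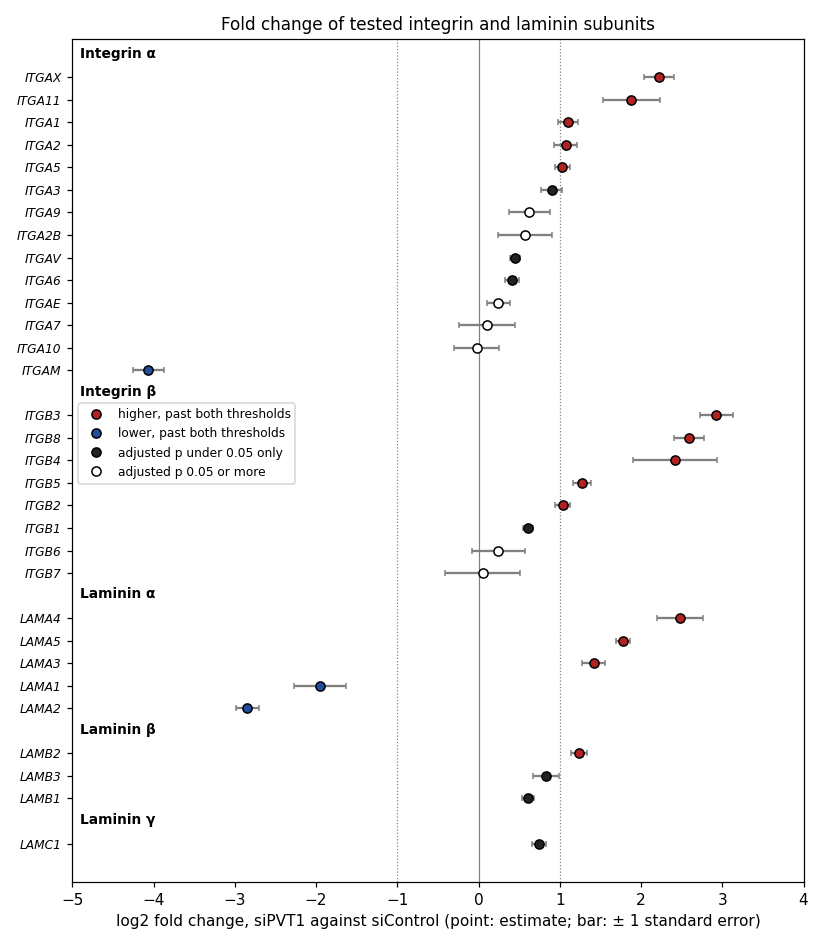
Log2 fold change of siPVT1 against siControl (horizontal axis) for 31 of the 32 tested subunits, grouped by chain type, with points for the estimate, bars for 1 standard error and dotted lines at the thresholds of -1 and 1. ITGB3 lies farthest to the right at 2.93 and ITGAM farthest to the left at -4.06, and the laminin α chains fall on both sides.

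Promoter windows of 300 bases (250 before and 50 after the start, RefSeq, GRCh38.p14) were given for 23 of the 32 tested subunits. They were searched on both strands for ACGTG, the core of the hypoxia-inducible factor motif, TGANTCA, the AP-1 motif, and GGAATG, the TEAD motif; no matches shared a base in the sequences shown. ACGTG was in 2 of the 23 (ITGA11 and ITGA6) and in 21.6% of all 27305 windows. TGANTCA was in 2 (ITGA5 and LAMA3) and in 7.76% of all windows. GGAATG was in 4 (ITGA10, ITGA5, ITGB1 and LAMA2) and in 14% of all windows. The 250 bases before the start follow for LAMA5 and ITGAM, the members with a window that had the smallest p in each direction, and for the 4 called members with a match there, so that their composition can be compared; capitals mark a match.
LAMA5: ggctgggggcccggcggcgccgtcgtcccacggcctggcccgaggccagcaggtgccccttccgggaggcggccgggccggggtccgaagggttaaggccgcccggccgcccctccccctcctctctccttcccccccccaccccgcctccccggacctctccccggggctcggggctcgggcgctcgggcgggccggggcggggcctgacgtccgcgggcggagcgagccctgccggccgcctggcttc
ITGAM: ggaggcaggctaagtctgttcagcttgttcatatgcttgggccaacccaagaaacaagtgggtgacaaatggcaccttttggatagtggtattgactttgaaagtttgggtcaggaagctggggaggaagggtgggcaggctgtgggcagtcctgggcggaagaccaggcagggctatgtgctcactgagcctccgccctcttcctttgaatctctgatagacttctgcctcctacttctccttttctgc
LAMA2: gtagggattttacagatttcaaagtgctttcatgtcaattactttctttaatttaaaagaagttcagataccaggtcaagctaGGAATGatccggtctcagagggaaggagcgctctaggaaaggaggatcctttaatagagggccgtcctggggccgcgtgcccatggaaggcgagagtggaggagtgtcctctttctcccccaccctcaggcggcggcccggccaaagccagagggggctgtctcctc
ITGA5: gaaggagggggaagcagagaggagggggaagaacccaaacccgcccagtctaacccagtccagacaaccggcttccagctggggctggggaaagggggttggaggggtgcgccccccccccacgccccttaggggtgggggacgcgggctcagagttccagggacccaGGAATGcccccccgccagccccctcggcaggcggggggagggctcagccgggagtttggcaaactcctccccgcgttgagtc
LAMA3: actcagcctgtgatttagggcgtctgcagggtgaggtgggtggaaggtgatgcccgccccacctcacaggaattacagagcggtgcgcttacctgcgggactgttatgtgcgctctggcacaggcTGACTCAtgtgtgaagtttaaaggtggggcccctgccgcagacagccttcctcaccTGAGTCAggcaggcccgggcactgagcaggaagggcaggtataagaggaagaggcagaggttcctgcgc
ITGA11: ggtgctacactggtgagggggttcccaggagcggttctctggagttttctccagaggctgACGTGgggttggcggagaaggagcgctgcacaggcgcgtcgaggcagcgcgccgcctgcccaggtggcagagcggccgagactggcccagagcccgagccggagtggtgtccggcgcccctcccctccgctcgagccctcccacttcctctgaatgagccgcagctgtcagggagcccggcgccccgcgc
These are chr20:62367313-62367562 on the minus strand (LAMA5), chr16:31259725-31259974 on the plus strand (ITGAM), chr6:128882888-128883137 on the plus strand (LAMA2), chr12:54419267-54419516 on the minus strand (ITGA5), chr18:23872770-23873019 on the plus strand (LAMA3) and chr15:68432164-68432413 on the minus strand (ITGA11). The LAMA3 window lies inside the gene, which runs over chr18:23689453-23956222, and holds 2 TGANTCA matches. The TGANTCA match of ITGA5 runs past the end of the bases shown, so it is not in capitals. A match is a description of these letters and no evidence of binding.

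The β1 subunit, ITGB1, the partner of 12 of the α subunits in the receptors listed here, was the most abundant member per length and was higher in siPVT1 by less than 2-fold. ITGB1 had 53978, 49149 and 53976 normalized counts in the siControl libraries and 83325, 80480.5 and 75408 in the siPVT1 libraries, and the groups did not overlap. Its log2 fold change was 0.61 ± 0.07 (adjusted p = 1.11e-04). Per kilobase of the canonical transcript, its level in normalized counts was 14021 ± 746 in siControl and 21349 ± 1074 in siPVT1. Of the summed levels of the β subunits, ITGB1 made up 94.5% ± 0.0478 in siControl and 89.9% ± 1.18 in siPVT1. With the median length of coding transcripts in place of the canonical one, its share was 78.6% ± 0.197 in siControl and 68.1% ± 2.53 in siPVT1. ITGB1-DT, a transcript that starts divergently beside ITGB1, had 143, 141 and 146 normalized counts in the siControl libraries and 277, 213 and 177 in the siPVT1 libraries and a log2 fold change of 0.63 ± 0.16 (adjusted p = 0.0111).

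All 4 collagen receptors use β1, and 3 of their α subunits rose in siPVT1. ITGA2, which forms the α2β1 collagen receptor, had 11428, 11443 and 11084 normalized counts in the siControl libraries and 28007, 25192 and 18145 in the siPVT1 libraries. The groups were well apart, with replicate 3 the lowest in siPVT1, and the log2 fold change was 1.07 ± 0.14 (adjusted p = 3.16e-04). ITGA1, its relative in α1β1, had 598, 556 and 595 normalized counts in the siControl libraries and 1394, 1338 and 1014 in the siPVT1 libraries, with no overlap and a log2 fold change of 1.10 ± 0.12 (adjusted p = 1.24e-04). ITGA11, a fibrillar collagen receptor subunit, had 41.9, 51.5 and 39.7 normalized counts in the siControl libraries and 232, 176 and 85.5 in the siPVT1 libraries. The siPVT1 libraries spread from 85.5 to 232, all above siControl, and the log2 fold change was 1.88 ± 0.35 (adjusted p = 0.00194). ITGA10, best known from cartilage, overlapped between groups (36.4 ± 10.3 against 35.7 ± 7.35 normalized counts, log2 fold change -0.02 ± 0.28, adjusted p = 0.947). Of the summed α subunits per kilobase, ITGA2 made up 11.3% ± 0.242 in siControl and 13.6% ± 1 in siPVT1, while ITGA1, ITGA10 and ITGA11 each stayed under 0.6%. ITGA1 shares 4.65% of its canonical exons with PELO on the same strand.

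The laminin-binding α subunits that pair with β1, ITGA3 and ITGA6, were abundant in both groups and stayed under the 2-fold threshold. ITGA3 had 20280.0, 19797 and 19858 normalized counts in the siControl libraries and 44722, 37364 and 29843 in the siPVT1 libraries. All 3 siPVT1 libraries were higher, with a log2 fold change of 0.90 ± 0.13 (adjusted p = 4.99e-04), and the value passed the 2-fold threshold (1.02) without siPVT1 replicate 3. ITGA6, which can pair with β1 or with β4, had 22376, 21240.5 and 21742 normalized counts in the siControl libraries and 32400.5, 28917 and 25548 in the siPVT1 libraries, a log2 fold change of 0.41 ± 0.09 (adjusted p = 0.0039). ITGA7, the laminin receptor subunit of muscle, had 13.8 ± 3.78 and 14.7 ± 4.39 normalized counts, and its log2 fold change of 0.10 ± 0.35 (adjusted p = 0.818) turned to -0.044 when counts were scaled by the total. As a share of the α subunits per kilobase, ITGA6 was 29.3% ± 0.37 in siControl and 22.6% ± 1 in siPVT1, and ITGA3 was 32% ± 0.11 in siControl and 34.3% ± 1.4 in siPVT1. ITGA6-AS1, an antisense transcript, had 0 to 3.03 normalized counts in siControl and 8.74 to 15.97 in siPVT1 (log2 fold change 2.90 ± 0.66, adjusted p = 0.00558).

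ITGB4, the partner of α6 in the α6β4 receptor of hemidesmosomes, rose from a low level. It had 15.2, 19.2 and 9.24 normalized counts in the siControl libraries and 125, 79.8 and 31 in the siPVT1 libraries, so that the siPVT1 libraries spanned 31.0 to 125 and still lay above siControl. Its log2 fold change was 2.42 ± 0.52 (adjusted p = 0.00424), and its adjusted p was 0.0529 against a 2-fold change. Of the summed β subunits per kilobase, ITGB4 held 0.0168% ± 0.00656 in siControl and 0.0548% ± 0.0303 in siPVT1. The level of ITGB4 stayed far below that of ITGA6 in both groups (in normalized counts per kilobase, ITGB4 was at 2.47 ± 0.85 in siControl and 13.3 ± 7.95 in siPVT1, and ITGA6 at 3746 ± 97.8 in siControl and 4979 ± 589 in siPVT1).

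Among the RGD receptors, 3 β partners of αV rose past both thresholds, while αV was higher by less than 2-fold. ITGB3, the β subunit of the vitronectin receptor αVβ3, had 494, 463 and 551 normalized counts in the siControl libraries and 4869, 3927 and 2683 in the siPVT1 libraries. The rise was 7.6-fold, with a log2 fold change of 2.93 ± 0.21 (adjusted p = 1.25e-05), and replicate 3 was the lowest siPVT1 library. ITGB8, known for activating latent TGF-β with αV, had 139, 104 and 178 normalized counts in the siControl libraries and 827, 960.4 and 757 in the siPVT1 libraries, a log2 fold change of 2.59 ± 0.18 (adjusted p = 1.25e-05). ITGB5, the partner in αVβ5, had 2542, 2362 and 2562 normalized counts in the siControl libraries and 6859.8, 6219 and 5009 in the siPVT1 libraries, with no overlap and a log2 fold change of 1.28 ± 0.11 (adjusted p = 3.52e-05). ITGAV itself had 7074, 6704 and 7020.3 normalized counts in the siControl libraries and 9786, 9684 and 8904 in the siPVT1 libraries, and its log2 fold change of 0.45 ± 0.06 (adjusted p = 3.59e-04) was under the 2-fold threshold. ITGB6, the epithelial partner in αVβ6, overlapped between groups (14 ± 4.29 against 16.6 ± 2.3 normalized counts, log2 fold change 0.24 ± 0.32, adjusted p = 0.553). A gene model of the same strand, without a symbol, covers 38.1% of the canonical exons of ITGB3, and another covers 20.8% of those of ITGB6, so counts of both could be split between models.

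ITGA5, which with β1 forms the main fibronectin receptor, rose to about the 2-fold threshold. It had 9606, 9606 and 9694 normalized counts in the siControl libraries and 22631, 19427 and 17081 in the siPVT1 libraries and a log2 fold change of 1.03 ± 0.10 (adjusted p = 5.22e-05). Without siPVT1 replicate 1 the log2 fold change was 0.91, under the threshold, and the same happened for ITGA1, ITGA2 and ITGB2. Of the summed α subunits per kilobase, ITGA5 was 17.8% ± 0.27 in siControl and 21% ± 0.618 in siPVT1. ITGA8, another RGD receptor subunit, had 0 to 3 counts in any library, and ITGA4, the α4 subunit that binds VCAM1, had 0 to 2. ITGA9, which binds tenascin and VCAM1, had 20.1 ± 3.55 and 31.1 ± 4.5 normalized counts and missed the threshold (log2 fold change 0.62 ± 0.25, adjusted p = 0.0616). Its antisense transcript ITGA9-AS1 overlaps 9.71% of its canonical exons and did not pass either (log2 fold change 1.04 ± 0.63, adjusted p = 0.191).

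Per kilobase of the canonical transcript, ITGB1, ITGA3, ITGA6, ITGA5 and ITGA2 were the 5 integrin subunits with the highest levels in both groups. In siControl, the libraries of each neighbouring pair from ITGB1 down to ITGAE were apart, and those of ITGAX and ITGA1 overlapped, as did all neighbours from ITGA10 downwards. In siPVT1, neighbours that overlapped included ITGA6 with ITGA5, ITGB5 with ITGAV, and ITGB2 with ITGAX. ITGB3 moved from 84.6 ± 7.49 per kilobase in siControl, below ITGB2, to 644 ± 185 in siPVT1, above it. Levels per kilobase depend on the transcript length assumed: with the median length of coding transcripts, 16 of the 32 tested members moved by more than 1.5 times, and ITGB5 (3017 in siControl and 7308 in siPVT1) then stood above ITGA2 (1443 and 3032). For ITGB5 that median was 825 bases, against 4440 for the canonical transcript.

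**Figure D2:**
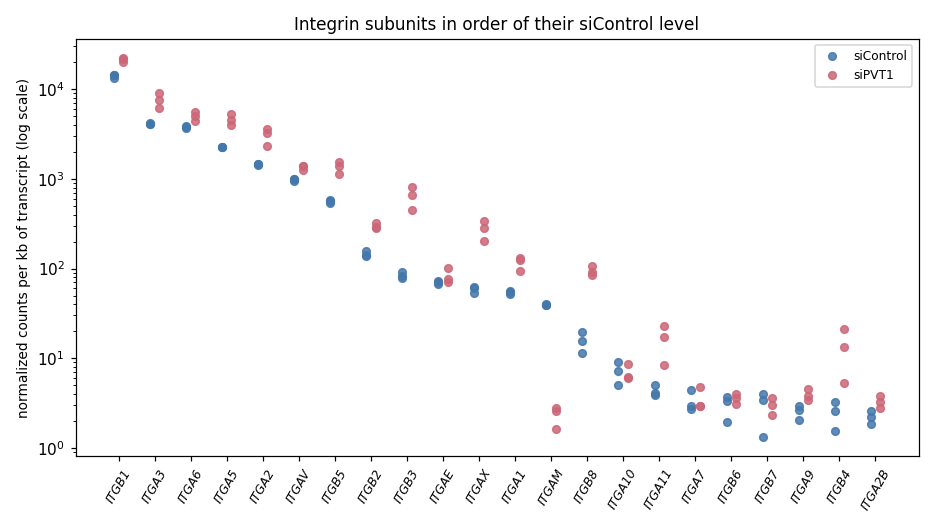
Normalized counts per kilobase of canonical transcript (vertical axis, log scale) of the 22 tested integrin subunits in order of the siControl mean, with a point for each of the 3 siControl and 3 siPVT1 libraries. ITGB1 is highest in all 6 libraries, and ITGAM is the subunit whose siPVT1 points fall far below its siControl points.

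Subunits known from leukocytes moved in opposite directions. ITGAM, the α subunit of the complement receptor αMβ2, had 188, 187 and 188 normalized counts in the siControl libraries and 12.2, 7.65 and 13.2 in the siPVT1 libraries. The siControl libraries lay within 1 normalized count of each other, and the fall was 16.7-fold, with a log2 fold change of -4.06 ± 0.19 (adjusted p = 1.98e-06). ITGAX, the αX subunit of the second complement receptor of this group, had 248, 289 and 282 normalized counts in the siControl libraries and 1567, 1308 and 934 in the siPVT1 libraries, a log2 fold change of 2.22 ± 0.18 (adjusted p = 2.71e-05). ITGB2, the β2 subunit that both need, had 437, 397 and 385 normalized counts in the siControl libraries and 906, 805 and 789 in the siPVT1 libraries, with a log2 fold change of 1.04 ± 0.09 (adjusted p = 3.42e-05) that falls under the threshold without siPVT1 replicate 1 or without siControl replicate 3. ITGB2-AS1 had a log2 fold change of 0.78 ± 0.15 (adjusted p = 0.00262). ITGAM (chr16:31259967-31332892) and ITGAX (chr16:31355134-31382999) are neighbours on the plus strand (GRCh38, GENCODE 44). ITGAD (chr16:31393335-31426505), which follows them, had 0 to 4 counts, and ITGAL (chr16:30472658-30523567), the α subunit of LFA-1, had 0 to 3. Of the leukocyte markers, CD14 (-1.42 ± 0.44 on the log2 scale) was called lower at 2 to 10 counts. LYZ had 246 counts in siControl replicate 2, 79 in siPVT1 replicate 2 and 5 to 19 in the other libraries. The summed level of the list was 19.4 to 259 normalized counts in siControl and 15.97 to 89.6 in siPVT1, with the upper value of each group in replicate 2. The part of the leukocyte markers in the change of ITGAM was not tested.

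The remaining integrin subunits stayed low or did not pass. ITGAE, the α subunit that binds E-cadherin, had 267 ± 10.4 and 315 ± 63.4 normalized counts (log2 fold change 0.24 ± 0.14, adjusted p = 0.18). ITGB7, its partner, had 4 to 11 counts (log2 fold change 0.05 ± 0.46, adjusted p = 0.934), and ZNF740 on the other strand, with 1306 to 1884 counts, overlaps 52.3% of its canonical exons. ITGA2B, the platelet α subunit that pairs with β3, had 7 to 12 counts (log2 fold change 0.57 ± 0.33, adjusted p = 0.187). Of the platelet markers, GP1BA had 0 to 6 counts, GP9 had 0 to 1, and PF4 and PPBP had 0 in every library.

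**Figure D3:**
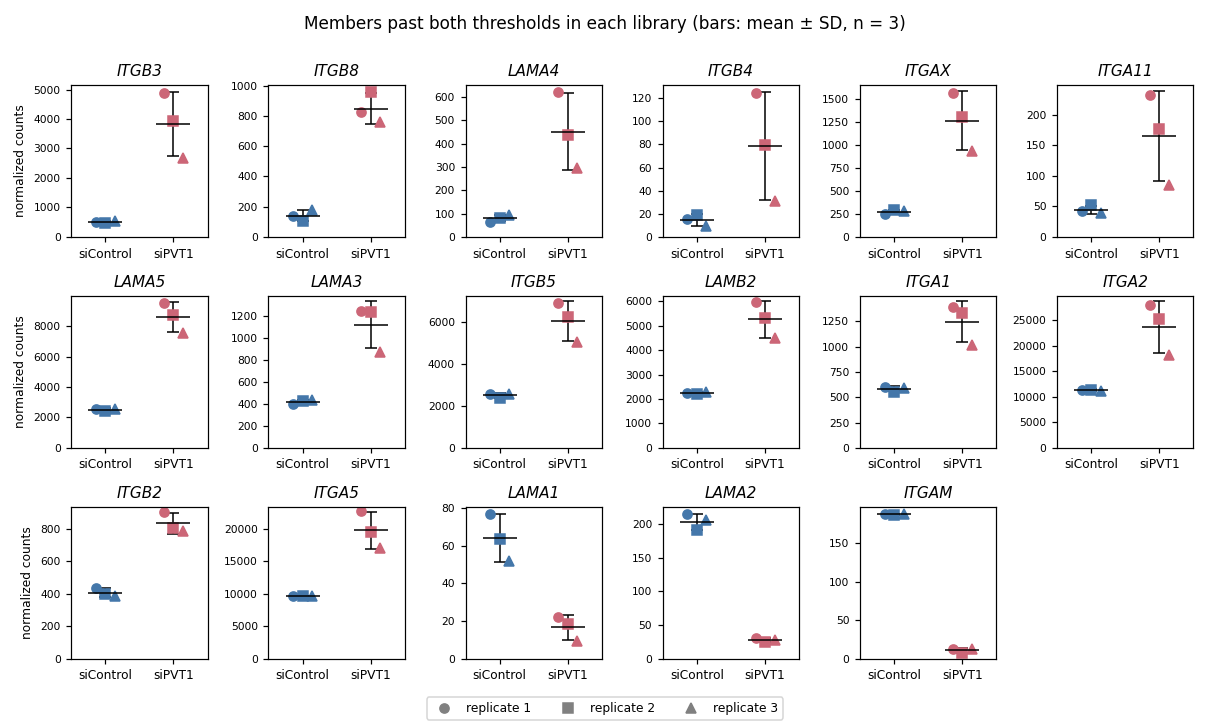
Normalized counts (vertical axis, from 0) of 17 of the 18 subunits past both thresholds in each library, with a marker for each replicate and bars for the mean ± SD (n = 3). The groups are apart in every panel, and siPVT1 replicate 3 is the siPVT1 library nearest to siControl in most of them.

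All 5 laminin α chains passed both thresholds, 3 of them higher and 2 lower. LAMA5, the α chain of laminin-511 and laminin-521, had 2552, 2412 and 2577 normalized counts in the siControl libraries and 9544, 8716 and 7557 in the siPVT1 libraries, a rise of 3.42-fold with a log2 fold change of 1.78 ± 0.09 (adjusted p = 2.84e-06). LAMA3, an α chain of epithelial laminins, had 402, 424 and 435 normalized counts in the siControl libraries and 1251, 1243 and 875 in the siPVT1 libraries, with a log2 fold change of 1.42 ± 0.14 (adjusted p = 6.72e-05). LAMA4, known from vessel walls and muscle as part of laminin-411, had 64.8, 82.8 and 94.2 normalized counts in the siControl libraries and 623, 436 and 296 in the siPVT1 libraries, and the log2 fold change was 2.48 ± 0.28 (adjusted p = 1.32e-04). In all 3 chains, siPVT1 replicate 3 had the lowest value of its group and still lay above every siControl library. LAMA2, the α chain of laminin-211 of muscle and nerve, had 214, 191 and 205 normalized counts in the siControl libraries and 31.2, 25.1 and 28.2 in the siPVT1 libraries, a fall of 7.2-fold with a log2 fold change of -2.85 ± 0.14 (adjusted p = 2.55e-06). LAMA1, the α chain of the early embryonic laminin-111, had 77.1, 63.6 and 51.7 normalized counts in the siControl libraries and 22.3, 18.6 and 9.4 in the siPVT1 libraries, with a log2 fold change of -1.95 ± 0.32 (adjusted p = 0.00107).

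Summed per kilobase, the α chains came to 298 ± 8.76 normalized counts in siControl and 926 ± 129.0 in siPVT1. Of this sum, LAMA5 made up 73.8% ± 0.646 in siControl and 81.5% ± 2.07 in siPVT1. With the median length of coding transcripts in place of the canonical one, the share of LAMA5 was 62.3% ± 2.19 and 62.0% ± 4.62, so its gain in share rests on the length assumed. That median was 729 bases for LAMA4, against 7228 for its canonical transcript, which raises the share of LAMA4 and lowers those of the other chains. The share of LAMA2 was 7.03% ± 0.29 in siControl and 0.317% ± 0.0478 in siPVT1, and that of LAMA1 was 2.23% ± 0.458 in siControl and 0.183% ± 0.0521 in siPVT1. LAMA4 held 3.74% ± 0.668 in siControl and 6.61% ± 1.54 in siPVT1, and with the median length 16.6% ± 2.55 and 26.3% ± 4.78. The share of LAMA1 in siControl was 1.01% ± 0.232 with the median length.

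**Figure D4:**
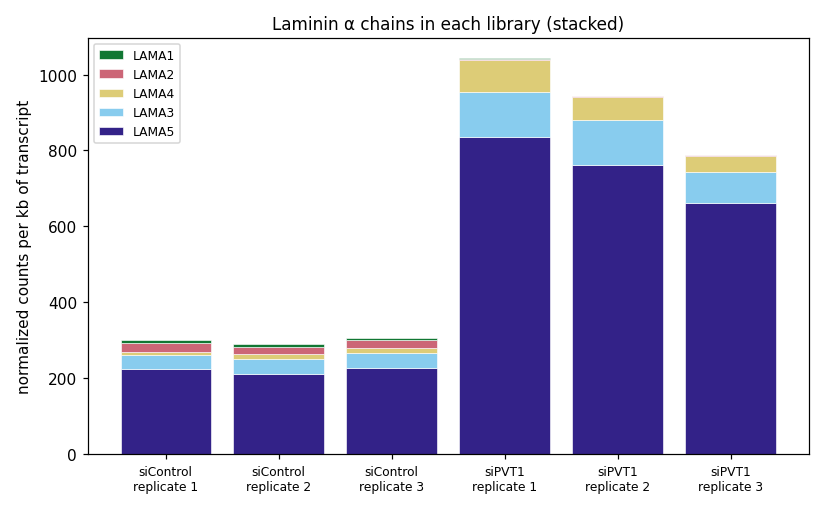
Stacked normalized counts per kilobase of transcript (vertical axis) of the 5 laminin α chains in each of the 6 libraries. LAMA5 is the largest part of every bar, and LAMA1 and LAMA2, at the top, take 2.24% and 7.03% of the siControl bars on average and 0.183% and 0.317% of the siPVT1 bars.

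Among the β and γ chains, LAMB2 rose past both thresholds, and LAMB1, LAMB3 and LAMC1 were higher by less than 2-fold. LAMB2, the β2 chain of laminin-521, had 2231, 2216 and 2279.8 normalized counts in the siControl libraries and 5998, 5319 and 4498 in the siPVT1 libraries, with a log2 fold change of 1.23 ± 0.10 (adjusted p = 2.54e-05) and an adjusted p of 0.0555 against a 2-fold change. LAMB3, the β3 chain of epithelial laminin, had 15824, 15003 and 15926 normalized counts in the siControl libraries and 34663, 27342 and 20812 in the siPVT1 libraries, where replicate 3 was again the lowest siPVT1 library, and its log2 fold change of 0.82 ± 0.16 (adjusted p = 0.00243) was under the threshold. LAMB1 and LAMC1, which build laminin-111, laminin-211, laminin-411 and laminin-511, were higher by less than 2-fold, LAMB1 from 6299.8 ± 8.1 to 9613 ± 927 normalized counts (log2 fold change 0.61 ± 0.08, adjusted p = 2.20e-04) and LAMC1 from 15149 ± 108 to 25421 ± 3029.8 (log2 fold change 0.75 ± 0.09, adjusted p = 1.52e-04). LAMB4 had 4 to 10 counts in siControl and 1 in each siPVT1 library, and LAMC3, the γ3 chain, had 1 to 5 counts. Per kilobase, LAMB3 as a share of the β chains was 72% ± 0.589 in siControl and 72% ± 2.89 in siPVT1.

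Receptor subunits were then paired with their partners by the log2 ratio of their counts within each library, which does not depend on how libraries are scaled. Both subunits were tested in 19 of 24 listed receptors, and 9 ratios of laminin chains were added. The levels of 65.6% of all genes tested did not overlap between groups, and no such share was computed for ratios of other gene pairs. The groups did not overlap for 13 of the 19 receptor ratios and for 9 of the 9 laminin ratios. With 3 libraries against 3, the two-sided exact permutation test cannot go below p = 0.1, which each of these 22 ratios had (adjusted p = 0.127 over 28 ratios), so none could pass a threshold of 0.05.

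The ratio of ITGAV to its β partners was lower in siPVT1, without overlap, for 4 of the RGD receptors. The change was -2.44 ± 0.22 against ITGB3, -2.17 ± 0.22 against ITGB8, -0.82 ± 0.09 against ITGB5 and -0.16 ± 0.02 against ITGB1 (log2, difference of group means ± SE). Against ITGB6 the groups overlapped (0.17 ± 0.29). The ratio of ITGA6 to ITGB4 changed by -1.84 ± 0.58, and that of ITGA6 to ITGB1 by -0.20 ± 0.06. The ratios of ITGA11, ITGA1, ITGA2 and ITGA5 to ITGB1 changed by 1.16 ± 0.42, 0.48 ± 0.10, 0.44 ± 0.16 and 0.42 ± 0.09, without overlap in any of the 4. ITGA3 against ITGB1 overlapped (0.27 ± 0.13). Against ITGB2, ITGAM changed by -5.09 ± 0.23 and ITGAX by 1.15 ± 0.21.

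Against LAMC1, the γ1 chain, the laminin α chains changed in both directions. The log2 ratio of LAMA5 changed by 1.03 ± 0.04, that of LAMA4 by 1.69 ± 0.26 and that of LAMA3 by 0.66 ± 0.10, while LAMA2 changed by -3.57 ± 0.11 and LAMA1 by -2.71 ± 0.32. LAMB2 changed by 0.48 ± 0.03 and LAMB1 by -0.13 ± 0.02.

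**Figure D5:**
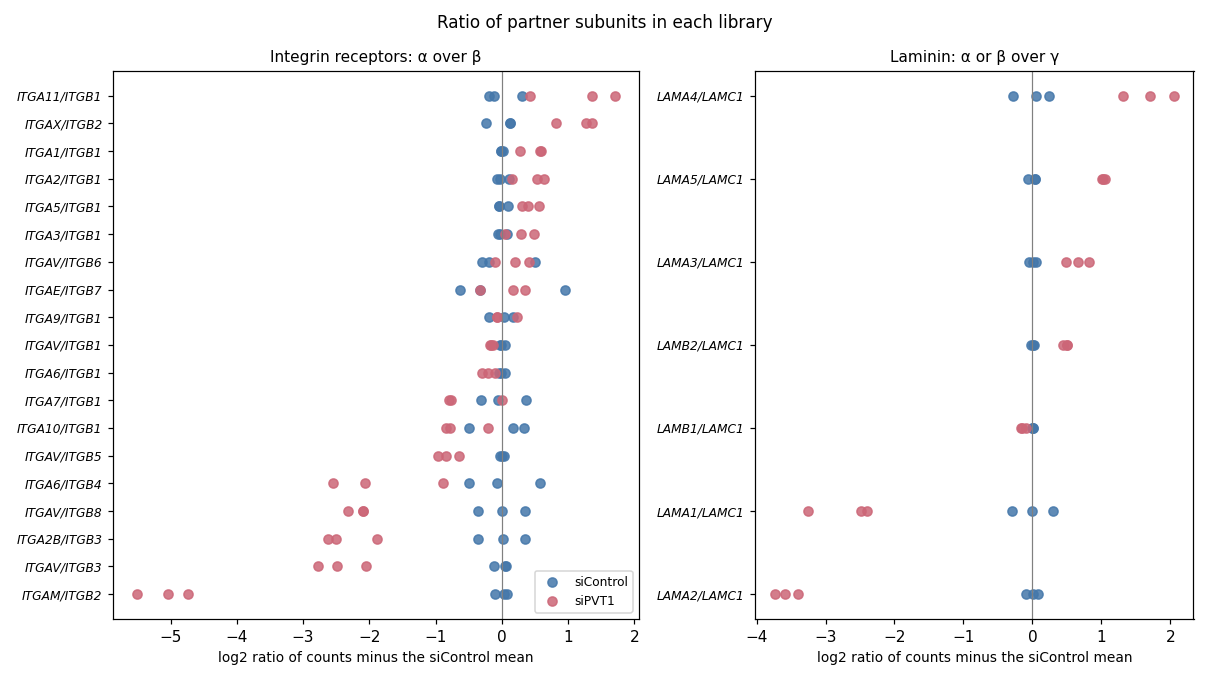
Log2 ratio of the counts of partner subunits in each library minus the siControl mean (horizontal axis) for 19 integrin receptors and 7 laminin chain pairs, with a point for each of 3 siControl and 3 siPVT1 libraries. ITGAM/ITGB2 and LAMA2/LAMC1 lie farthest to the left, and ITGAX/ITGB2 and LAMA4/LAMC1 lie to the right of 0 without overlap.

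The less abundant subunit of each receptor or trimer, per kilobase, shows which mRNA was scarcer, and is a bound on mRNA alone. For laminin receptors this was ITGB4 in α6β4, which moved from 2.47 ± 0.85 to 13.3 ± 7.95 normalized counts per kilobase, and the α subunit in each β1 receptor, such as ITGA3 (4086 ± 53.8 to 7631 ± 1522). For αVβ3 it was ITGB3 (84.6 ± 7.49 to 644 ± 185), for αVβ8 ITGB8 (15.7 ± 4.14 to 94.5 ± 11.5), and for αVβ5 it was ITGB5 in siControl. In siPVT1 the 2 subunits of αVβ5 overlapped, with ITGAV at 1344 ± 68.6 and ITGB5 at 1358 ± 212, and ITGB5 was the scarcer in replicate 3. For αMβ2 it was ITGAM (39.7 ± 0.0815 to 2.33 ± 0.626). For αXβ2 it was ITGAX in siControl, at 58.5 ± 4.74 against 145 ± 9.69 for ITGB2. In siPVT1 the libraries of ITGAX (272 ± 68.2) and ITGB2 (297 ± 22.6) overlapped, and ITGB2 was the scarcer in replicate 1. On the ligand side, the α chain was the scarcest in each trimer named here, with LAMA3 at 39.5 ± 1.59 to 105 ± 20.2 in laminin-311, LAMA5 at 220.0 ± 7.77 to 753 ± 87.3 in laminin-511, LAMA4 at 11.2 ± 2.06 to 62.5 ± 22.7 in laminin-411, LAMA2 at 21 ± 1.21 to 2.9 ± 0.312 in laminin-211 and LAMA1 at 6.66 ± 1.32 to 1.74 ± 0.688 in laminin-111. With the median transcript length, the scarcer subunit in siControl was unchanged in 23 of 24 receptors and 10 of 11 trimers. The exceptions were αVβ5 and laminin-521.

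The genes around these receptors were described by 6 lists, chosen with earlier results of these data known. Their counts of called genes stand beside 11.8% higher and 9.64% lower over all genes tested. In the list of activators, adaptors and kinases of the adhesion core, 36 genes were tested, 1 was called higher and 2 lower, and the median log2 fold change was 0.14. PTK2B, the kinase related to FAK, rose from 91.8 ± 8.41 to 361 ± 109.6 normalized counts (log2 fold change 1.97 ± 0.23, adjusted p = 1.67e-04), while FERMT1, a kindlin that activates integrins, fell from 1019 ± 22.1 to 139 ± 47.1 (log2 fold change -2.86 ± 0.19, adjusted p = 1.06e-05), and ZYX, a focal adhesion protein that senses tension, fell from 3241 ± 108 to 871 ± 210.5 (log2 fold change -1.90 ± 0.15, adjusted p = 2.44e-05). Of 14 inhibitors and trafficking genes (median 0.10), none was called higher and FLNA, the filamin that competes with talin for β tails, was called lower (log2 fold change -1.07 ± 0.07, adjusted p = 1.19e-05). Of 12 lateral partners and hemidesmosome genes (median 0.21), the tetraspanin CD9 (log2 fold change 2.83 ± 0.13, adjusted p = 1.64e-06) and the integrin-associated protein CD47 (log2 fold change 1.18 ± 0.10, adjusted p = 3.37e-05) rose. In the same list, SLC3A2, which binds β1 tails, fell (log2 fold change -1.93 ± 0.08, adjusted p = 1.52e-06), as did PLEC, the plectin that ties α6β4 to keratins (log2 fold change -1.27 ± 0.07, adjusted p = 3.52e-06).

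In the lists closest to laminin, 2 of 8 other laminin receptors rose, the Lutheran antigen BCAM, which binds laminin α5 (log2 fold change 1.33 ± 0.12, adjusted p = 4.87e-05), and the syndecan SDC4 (log2 fold change 1.18 ± 0.07, adjusted p = 5.52e-06), and none was called lower (median 0.18). Of 11 basement membrane partners of laminin (median 0.84), 3 rose and none was called lower. They were the peroxidasin PXDN, which cross-links collagen IV (log2 fold change 1.55 ± 0.08, adjusted p = 2.49e-06), NID1, which joins laminin to collagen IV (log2 fold change 1.10 ± 0.06, adjusted p = 5.26e-06), and FREM2 (log2 fold change 1.49 ± 0.17, adjusted p = 1.65e-04). Of 22 integrin ligands other than laminin and collagen (median 0.74), 9 rose and 3 fell, beside 11.8% and 9.64% of all genes. ICAM1, a ligand of β2 integrins, had 1481, 1511 and 1424 normalized counts in the siControl libraries and 17761, 15387 and 13259 in the siPVT1 libraries (log2 fold change 3.39 ± 0.11, adjusted p = 5.98e-07). L1CAM (log2 fold change 2.66 ± 0.14, adjusted p = 3.06e-06), LTBP1 (log2 fold change 1.43 ± 0.11, adjusted p = 2.20e-05) and FBN1 (log2 fold change 1.11 ± 0.10, adjusted p = 3.95e-05) rose as well. SPP1, the αVβ3 ligand osteopontin, had 5935, 5512 and 5911 normalized counts in the siControl libraries and 833, 837 and 1040.2 in the siPVT1 libraries and a log2 fold change of -2.68 ± 0.10 (adjusted p = 7.92e-07), and TGFBI (log2 fold change -1.25 ± 0.05, adjusted p = 1.50e-06) and THBS1 (log2 fold change -1.75 ± 0.09, adjusted p = 2.70e-06) fell with it. Fibronectin (FN1), the ligand of α5β1, chosen after its values were seen, had 129921, 133298 and 127808 normalized counts in the siControl libraries and 360708, 294049 and 223435 in the siPVT1 libraries (log2 fold change 1.17 ± 0.15, adjusted p = 2.83e-04).

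Some genes listed as markers of 2 other cell types were called higher in siPVT1, as were 11.8% of all genes tested. Of 4 endothelial markers, 3 were called higher, namely CDH5 from 1998 ± 7.09 to 9314 ± 1108 normalized counts, PECAM1 from 37.5 ± 3.73 to 299 ± 24.3 and KDR from 28.7 ± 9.24 to 57.7 ± 8.83, and the summed level of the list was 2074 to 2100.0 in siControl and 8622 to 10880 in siPVT1. Of 4 fibroblast markers, COL1A1 (113 ± 8.7 to 505 ± 7.7) and PDGFRB (85.9 ± 3.86 to 302 ± 16.1) were called higher, and THY1 and COL1A2 had 0 to 4 counts, with a sum of 197 to 210 in siControl and 799 to 827 in siPVT1. LAMA4, ITGB3 and ITGA11 are also known from vessel and stromal cells, and the part of these markers in the subunits' changes was not tested.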

How the data were processed

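The authors aligned 75-base single-end reads with STAR to GENCODE 35 (GRCh38.p13), quantified them with Salmon, and the deposited table holds estimated counts for each symbol, rounded to integers and not normalized; the submitters' processing notes list STAR 2.7.3a and Salmon 0.14.1. The strand setting is not given in the sources used here, so reads of genes that overlap on opposite strands could be shared. Groups came from the sample titles. Members and gene lists were chosen with earlier results of these data known.

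The deposited counts were fitted over all genes with edgeR 4.0.16 (R 4.3.3) and its quasi-likelihood test, with TMM factors from all rows and the siRNA as the only term. A gene needed 5 normalized counts in 3 libraries. Calls needed a Benjamini-Hochberg adjusted p under 0.05 together with a log2 fold change of 1 or more in size. Values after ± are SD (n = 3) for levels and standard errors for log2 fold changes and ratios, the former being the size of the change over the square root of F. Ratios of partners used a pseudocount of 0.5 counts. Levels per kilobase used the canonical transcript of GENCODE 44 (GRCh38). The fit was also run on simulated counts that gave every gene the same relative spread in both groups. The spread of these libraries differs between groups, so that run does not measure how reliable the calls are. Libraries within a group were not copies of each other (chi-square per degree of freedom 1.72 to 46.3). Tested members are named, except for an item that is not reported here, those past both thresholds with each library; from each list, up to 4 called genes in each direction with the smallest p. Alternatives were DESeq2 1.42.0, other scalings and filters, a replicate block, a test against a 2-fold change, and leaving out each library.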

Additional observations from a re-analysis of the deposited data

How the results depend on the processing

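Of the 18 called subunits, 11 were called under all 13 alternatives. Scaling by the total count left 6 integrin subunits higher in place of 10, and it turned the log2 fold changes of ITGA7 to -0.044 and ITGB7 to -0.10. The median log2 fold change over all genes moved down with them, from 0.0014 to -0.15. The test against a 2-fold change, by construction stricter, left 5 integrin subunits and 3 laminin chains higher, and 1184 genes higher and 792 lower among all genes (2248 and 1833 before). ITGB4 and LAMB2 lost their call only in that test. ITGA1, ITGA2, ITGA5 and ITGB2 lost theirs there, under total-count scaling and without siPVT1 replicate 1, and ITGB2 also without siControl replicate 3.

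Leaving out each library in turn gave 6 (without siPVT1 replicate 1) to 11 (without siPVT1 replicate 3) integrin subunits higher. For members that had not passed, the log2 fold change ranged from -0.23 to 0.18 for ITGA10, from -0.20 to 0.34 for ITGA7 and from -0.31 to 0.34 for ITGB7, and the change in partner ratio ranged from -0.081 to 0.10 for ITGA9/ITGB1 and from -0.25 to 0.54 for ITGAE/ITGB7. ITGA2B and ITGB7 were not tested under filterByExpr. With no filter, LAMB4 was called lower as well, giving 19 members.

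Samples with the same replicate number did not deviate together across all genes (Pearson r of -0.032, 0.021 and 0.00086). These values do not speak to single genes, and LYZ was highest in replicate 2 of both groups (246 counts in siControl and 79 in siPVT1). So were EPCAM (126 counts in siControl and 98 in siPVT1) and NPNT (17 and 15). CDH1 was highest in replicate 2 of siPVT1 (43 counts) but in replicate 1 of siControl (35 counts). What these genes share was not tested. A fit with the replicate block called the same number of subunits, 18, with 10 integrin subunits higher, and 2158 genes higher and 1766 lower overall. Counts of 11 or fewer, as for ITGB7 and LAMB4, limit what can be seen at this depth.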
